A study of Bombyx mori with 9 samples.

Results

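Gene expression in the silk glands of the silkworm Bombyx mori was compared between A306 and XH, pure strains with the lightest and the intermediate glands of the 3 strains in the study. The A306 group held 3 silk gland samples of strain A306 and the XH group 3 of strain XH, all taken at day 5 of the fifth larval instar from larvae reared under one regime, with no treatment, transgene or deletion named in the labels. The third strain, A798, has the heaviest glands and is cited below only as a reference level. The labels do not name the gland region, the sex of the larvae or how many larvae went into a library. Whether each library stands for a different larva is not stated either, so the p-values describe how far these samples scatter, and that scatter may be technical. With 1 strain for each gland weight, gland weight and every other trait of the strain cannot be told apart.

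Members were the features of the deposited FPKM table (fragments per kilobase of transcript, scaled to the library total) with at least 1 FPKM in at least 3 of these 6 libraries. They numbered 4348 of 15745 features and used 6 of the 9 samples. Of the 4348, 18 were noncoding RNA models and 553 (12.72%) carried a gene name or description, so most results below concern the minority of genes that can be named.

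Gland weight is listed as 2 numbers a sample, with no word on how they differ. Averaged over both, the weights were 0.665, 0.694 and 0.705 g in A306 and 0.974, 0.965 and 0.982 g in XH. All A306 samples lay below all XH samples, and the A306 mean of 0.688 ± 0.0207 g (SD, n = 3) was 70.6% of the XH mean of 0.974 ± 0.0085 g (SD, n = 3). The exact permutation test, two-sided, gave p = 0.1, the smallest value that 3 samples against 3 can give. A798 glands weighed 1.28 ± 0.0309 g (SD, n = 3).

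The silk gland is a paired secretory organ of the larva. Its posterior cells secrete fibroin, an assembly of a heavy chain, a disulphide-linked light chain and the chaperone-like glycoprotein P25, and its middle cells secrete the sericin coat. The cells stop dividing early, become highly polyploid by endoreplication and, in the last instar, turn most of their translation, folding and export capacity to silk. The fat body makes storage proteins and 30K lipoproteins at the same age and releases them into the haemolymph that bathes the gland.

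The 6 libraries summed to between 527620.9 and 587872.2 FPKM. Their absolute depth is unknown because no counts were used here; the spacing of low FPKM values placed the relative depth of any 2 libraries within a factor of 1.0 to 1.11. Median log2(FPKM + 1) over the tested features was 2.91 to 2.95 in A306 and 2.82 to 2.86 in XH. Ribosomal RNA models took 5.05% of the total in XH library 3 and 6.91% to 9.99% in the other 5 libraries. Correlation of log2 values across the tested features, which are not independent replicates, was 0.964 to 0.968 between libraries of one strain (6 pairs) and 0.869 to 0.877 between strains (9 pairs). As a check of the tissue label, the fibroin light chain was the most abundant described transcript in all 6 libraries.

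The strains differed widely, and features higher in XH had the larger median difference. Fitted with limma on log2(FPKM + 1) with Benjamini-Hochberg adjustment over all 4348 features, 1632 (37.5%) passed an adjusted p below 0.05: 1040 (23.9%) were higher in A306 and 592 (13.6%) higher in XH. The median log2 change, A306 minus XH, was 0.65 among the first and −1.13 among the second. At 2-fold or more, 317 features (7.29%) were higher in A306 and 339 (7.8%) in XH, and at 8-fold or more 53 and 71. The 3 libraries of one strain lay wholly beyond those of the other in 2239 features (51.5%), with A306 above in 1463 (33.6%) and XH above in 776 (17.8%). After centring these shares were 48.7%, 26.4% and 22.3%.

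The excess of small differences towards A306 depended on scale. Over all tested features the median log2 change was 0.13 as deposited and 0.04 after the medians of the 6 libraries were set equal. Median centring left 1498 calls (34.5%), of which 789 (18.1%) were higher in A306 and 709 (16.3%) in XH, and at 2-fold or more 277 (6.37%) and 360 (8.28%). The share of calls higher in A306 thus went from 63.73% to 52.67%. It was 51.97% after quantile normalization, 53.2% with equal sums outside the 20 most abundant features, 51.71% without the noncoding models, 68.57% with a filter of 5 FPKM and 56.65% with no filter. Under both scalings 1381 features were called in the same direction, 789 for A306 and 592 for XH, and 0 in opposite directions. Another 251 were called only as deposited and 117 only after centring. Calls were less common among low features: 28.6% of those with a mean under 5 FPKM passed, against 65.0% of those between 100 and 1000.

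**Figure D1:**
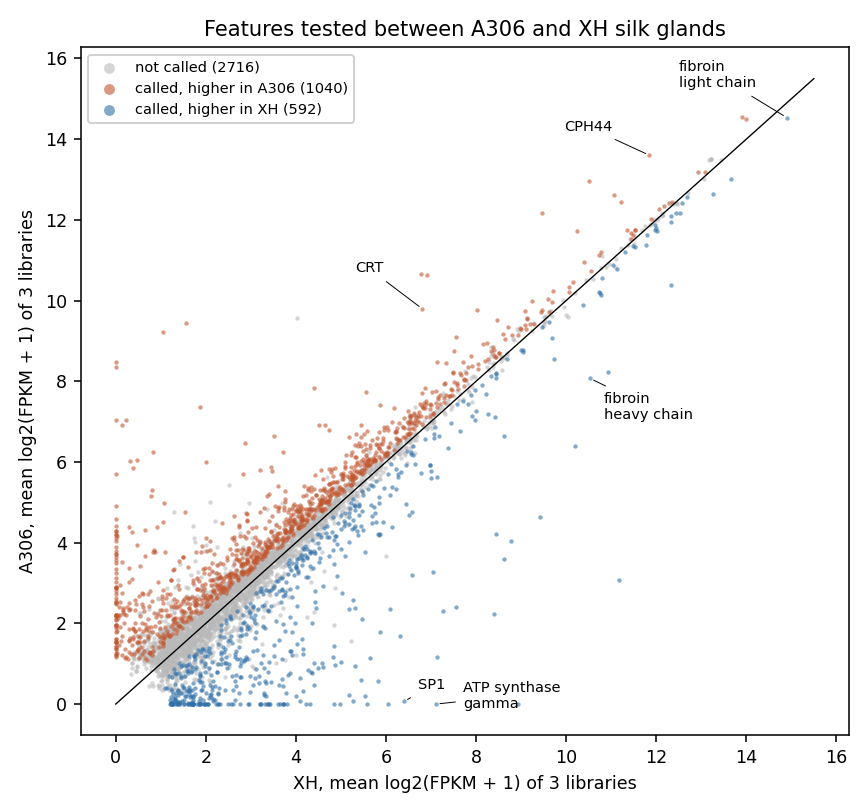
Each point is one of the 4348 tested features, with its mean log2(FPKM + 1) over 3 XH libraries on the horizontal axis and over 3 A306 libraries on the vertical axis; orange and blue mark the 1040 and 592 features called higher in A306 and XH by limma as deposited, and the line marks equal means. Points far below the line, such as SP1 and the fibroin heavy chain, and far above it, such as CRT (calreticulin), carry large differences; points on the axes are listed at 0 in one strain.

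All 3 measured silk structural genes were higher in XH, beside 13.6% of all features, and the heavy chain differed by far the most. Fibroin heavy chain (BGIBMGA005111) was at 262, 267 and 274 FPKM in A306 and at 1518, 1484 and 1437 FPKM in XH. The groups did not overlap, and the mean was 5.53-fold higher in XH (log2 change −2.46 ± 0.0328 SE, limma adjusted p = 2.19e-07). Fibroin light chain (FIBL) was at 23927, 23698 and 23592 FPKM in A306 and at 29754, 30496 and 31390 FPKM in XH. These groups were also apart, by 1.29-fold (log2 change −0.36, adjusted p = 0.000199), but quantile normalization took the adjusted p of the light chain to 0.128. P25 (fibrohexamerin), which holds the fibroin unit together for export, was at 4565, 4603 and 4684 FPKM in A306 and at 5818, 5897 and 6021 FPKM in XH, 1.28-fold higher in XH (adjusted p = 0.000154). No tested feature carried a sericin name, so the coat proteins were not analysed here.

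A ratio inside a library is untouched by its scaling. The heavy chain FPKM was 1.10%, 1.13% and 1.16% of the light chain FPKM in A306 and 5.10%, 4.87% and 4.58% in XH. The ratio was lower in 3 of 3 A306 libraries, with means of 1.13% ± 0.0322 (SD, n = 3) and 4.85% ± 0.262 (SD, n = 3), and the exact permutation test gave p = 0.1, the smallest possible. In A798 it was 4.25% ± 0.271 (SD, n = 3). P25 was at 19.5% ± 0.390 of the light chain in A306 and at 19.4% ± 0.187 in XH (SD, n = 3 each), and the exact permutation test gave p = 0.8. FPKM of the heavy chain rest on one gene model of a highly repetitive transcript, and the sources used here do not say how reads in its repeats were placed.

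The transcription factors of the silk genes differed little. SGF1 (silk gland factor 1, a forkhead protein that binds fibroin and sericin promoters) was at 48.1, 52.2 and 57.0 FPKM in A306 and at 48.6, 49.1 and 48.0 FPKM in XH. The groups overlapped (log2 change 0.11 ± 0.0694 SE, limma adjusted p = 0.289), and the sign turned under quantile normalization. SGF3 (silk gland factor 3, the POU protein POU-M1, a sericin gene regulator) was at 41.4, 47.0 and 48.9 FPKM in A306 and 35.4, 36.6 and 39.1 FPKM in XH, higher in A306 as deposited (log2 change 0.29, adjusted p = 0.0314) but not after centring (adjusted p = 0.124) or without replicate 2 or 3 of A306 or 1 or 2 of XH. FMBP-1, a fibroin promoter-binding protein, ranged from 8.54 to 12.7 FPKM over the 6 libraries, with overlapping groups (adjusted p = 0.906).

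Some of the largest differences among described genes lay in transcripts best known from fat body. All 3 tested storage proteins, the amino acid reserve laid down for metamorphosis, were higher in XH, beside 13.6% of all features. Their median log2 change was −5.16 against 0.13 over all tested features. SP1 reached 1 FPKM in XH libraries only and so could only be kept through XH. The descriptions of SP1 and SP2 call them sex-specific storage proteins. Because the sex of the larvae is not given, sex and strain cannot be told apart here. SP1 was at 0.07, 0.07 and 0 FPKM in A306 and at 81.8, 83.5 and 86.0 FPKM in XH. SP2 was at 5.21, 3.84 and 3.11 FPKM in A306 and at 154, 152 and 156 FPKM in XH, 38.0-fold higher. SP3 was at 4.51, 4.44 and 3.84 FPKM in A306 and at 187, 184 and 188 FPKM in XH, 43.7-fold higher. No XH library came near an A306 library in any of the 3 (limma adjusted p = 2.19e-07 for SP1 and SP3 and 7.7e-06 for SP2).

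The 30K lipoproteins, small haemolymph proteins of the larva, moved the same way. Of 15 listed, 10 were tested and 10 of 10 were higher in XH, beside 13.6% of all features. Their median log2 change was −2.59. Among the 10, 5 reached 1 FPKM in XH libraries only and so could only be kept through XH. BMO.4927 (30 kDa lipoprotein 21G1) was at 1.06, 1.41 and 1.33 FPKM in A306 and at 139, 138 and 141 FPKM in XH, 110-fold higher. LP (PBMHP-6) was at 12.1, 12.2 and 9.08 FPKM in A306 against 396, 374 and 412 FPKM in XH, 35.4-fold higher. LP-C19 (PBMHPC-19) stood at 14.9, 16.7 and 14.6 FPKM against 425, 444 and 449 FPKM, and BMO.682 (30K protein 2) at 17.5, 16.8 and 18.2 FPKM against 357, 334 and 350 FPKM. The 4 genes had limma adjusted p of 2.62e-06 or less and no overlap between strains. LP-C12 differed least among the abundant members, at 20.7, 20.3 and 19.2 FPKM against 64.7, 68.6 and 74.1 FPKM (log2 change −1.73, adjusted p = 1.82e-05). These genes are near copies of each other, so the split of reads between them is uncertain.

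Summed, the 4 storage and yolk protein genes came to 6.96 to 9.80 FPKM in A306, 420 to 430 FPKM in XH and 122 to 136 FPKM in A798. The 15 lipoprotein genes came to 63.9 to 68.6 FPKM in A306, 1380 to 1453 FPKM in XH and 494 to 506 FPKM in A798. XH was thus the highest of the 3 strains in both sums, and A306 the lowest. VG (vitellogenin), made by fat body of females at a later age, was at or below 0.01 FPKM in all 6 libraries. These transcripts are also the markers of fat body, and the part of fat body cells in these and the other results was not tested. In bulk tissue, fewer cells of a type and less RNA per cell cannot be told apart.

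**Figure D2:**
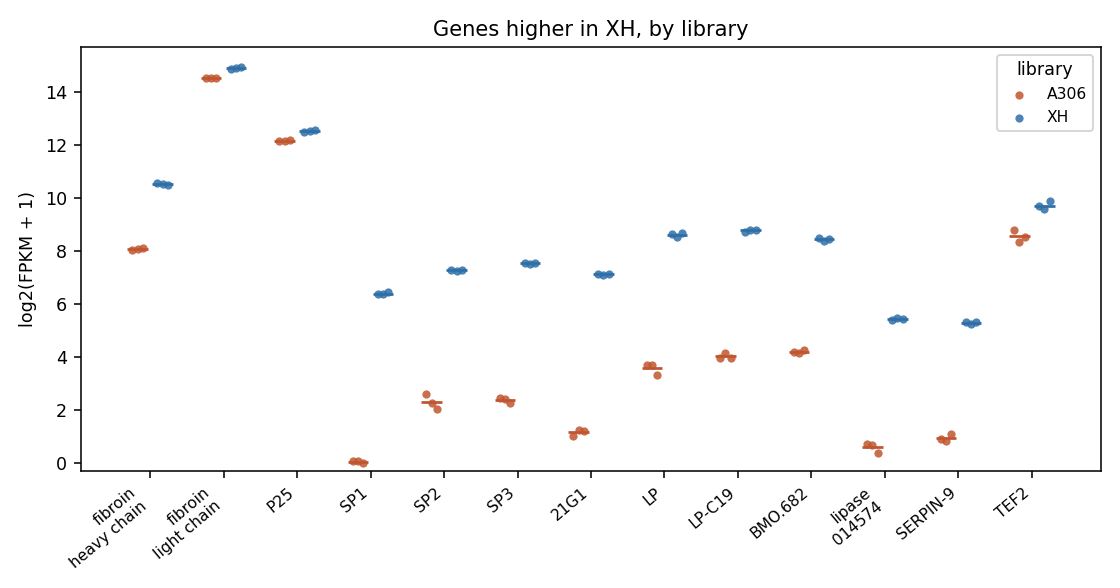
Log2(FPKM + 1) in each of 3 A306 (orange) and 3 XH (blue) libraries for 13 genes called higher in XH, with a short line at each strain's mean. The heavy chain is set apart more widely than the light chain and P25, and SP1 is near 0 in all A306 libraries but at 81.8 FPKM or more in XH.

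Markers of other tissues gave a mixed picture. Of the 4 haemocyte and melanization genes, summed at 3.19 to 4.19 FPKM in A306 and 9.74 to 12.3 FPKM in XH, 3 were tested and 2 were higher in XH. These 2 reached 1 FPKM in XH libraries only, so the filter fixed their direction. Over all features 13.6% were higher in XH. PRO-PO2, a prophenoloxidase of the melanization cascade, was at 0.03, 0.16 and 0.03 FPKM in A306 and at 3.51, 3.41 and 3.97 FPKM in XH (log2 change −2.11, adjusted p = 8.49e-05). BMPP, the precursor of the cytokine paralytic peptide, was at 0.87, 0.42 and 0.96 FPKM against 5.49, 3.49 and 2.71 FPKM (adjusted p = 0.00651). PPO1, the other prophenoloxidase, had overlapping groups at 1.93 to 2.93 FPKM and 2.72 to 3.26 FPKM (adjusted p = 0.287). The part of haemocytes in the other results was not tested.

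Muscle, midgut and nerve lists pointed in no common direction, beside 23.9% of all features higher in A306 and 13.6% in XH. Of 5 muscle genes, summed at 71.5 to 79.5 FPKM in A306 and 65.3 to 71.8 FPKM in XH, 3 were tested. MLC-2, a myosin light chain, was at 0.28, 0.54 and 1.21 FPKM in A306 and 2.54, 3.64 and 4.04 FPKM in XH (adjusted p = 0.0074), whereas muscle-type actin A1 was at 69.2 to 76.7 FPKM against 59.0 to 63.9 FPKM (adjusted p = 0.0252, and 0.133 after centring, with the call also lost without A306 replicate 2 or 3 or XH replicate 1 or 2). Both tested midgut genes of 5 were higher in XH, and the other 3, matched by midgut protease or peritrophic matrix words, were at or below 0.22 FPKM in every library. SERPIN-9 (antichymotrypsin-1) was at 0.91, 0.78 and 1.14 FPKM in A306 and at 39.3, 37.5 and 39.2 FPKM in XH, 41.0-fold higher (adjusted p = 2.48e-06), while A798 was at 0.35 to 0.91 FPKM. BMSUC1, a beta-fructofuranosidase that splits sucrose, was at 1174, 1160 and 1177 FPKM against 1709, 1727 and 1738 FPKM, 1.47-fold higher in XH (adjusted p = 1.83e-05), and A798 was higher than both at 3351 to 3456 FPKM. Of 14 nerve genes, summed at 63.3 to 91.2 FPKM in A306 and 40.8 to 61.0 FPKM in XH, 3 were tested. NPLP4, a neuropeptide-like gene, was at 67.9, 40.9 and 44.4 FPKM in A306 and 18.9, 17.7 and 26.1 FPKM in XH (adjusted p = 0.00953), and the serotonin receptor gene SER-4 at 6.10, 5.15 and 4.75 FPKM against 13.1, 13.7 and 15.3 FPKM (adjusted p = 0.00051). SYTI, a synaptotagmin of nerve terminals, stayed at or below 0.20 FPKM. The part of muscle, midgut and nerve cells in the other results was not tested.

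Few immune effector genes could be tested. Of 21 in the table, 15 were listed at 0 in every library, which can be a failed estimate. Only 3 were tested, and all 3 were higher in XH, beside 13.6% of all features. The lysozyme gene BGIBMGA010439, whose product digests bacterial walls, was at 1.52, 2.23 and 0 FPKM in A306 and at 23.5, 24.9 and 20.2 FPKM in XH (log2 change −3.56 ± 0.441 SE, limma adjusted p = 0.00178). GLV3 (gloverin 3) had 0 FPKM in each A306 library and 1.36, 1.49 and 1.31 FPKM in XH, and ATTACIN1 likewise 0 FPKM and 1.10, 1.57 and 1.49 FPKM. Both sit near the filter of 1 FPKM and were kept through XH alone, and gloverin genes are near copies of each other.

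Lipases and protease inhibitors carried some of the widest gaps. The lipase gene BGIBMGA014574 was at 0.66, 0.60 and 0.32 FPKM in A306 and at 41.3, 43.3 and 42.2 FPKM in XH, 80.2-fold higher (adjusted p = 2.68e-06). Lipase BGIBMGA012648 was at 19.1, 27.6 and 29.2 FPKM against 85.1, 90.7 and 96.5 FPKM (adjusted p = 0.000476) and was listed at 0 in all 3 A798 libraries. With acid lipase-1 (BGIBMGA005695), 3 of 3 tested lipases of 17 in the table were higher in XH, beside 13.6% of all features. BGIBMGA014574 and BGIBMGA005695 reached 1 FPKM in XH libraries only and could only be kept through XH. Among 6 tested protease inhibitors of 10, SERPIN-9 and SERPIN-7 were higher in XH, where 13.6% of all features were higher, against 23.9% in A306. SERPIN-7 reached 1 FPKM in XH libraries only and could only be kept through XH. The Kazal-type inhibitor BGIBMGA011573, of a class that blocks serine proteases, was higher in A306, at 24.9, 21.3 and 30.7 FPKM against 7.16, 6.73 and 5.69 FPKM in XH and 1.13 to 3.18 FPKM in A798. Its mean was 3.93-fold higher in A306 (log2 change 1.81, adjusted p = 0.000385).

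More cuticle protein genes were called higher in XH than in A306, in both classes measured, beside 13.6% of all features in XH and 23.9% in A306. In the class with RR chitin-binding motifs and related proteins, 14 of 115 genes were tested: 10 were higher in XH, 1 in A306, and the median log2 change was −0.99. Of the 14, 3 were kept through 1 strain alone. BMORCPR43 was at 6.97, 7.63 and 3.37 FPKM in A306 and at 30.6, 32.7 and 31.6 FPKM in XH (adjusted p = 0.00136), and BMORCPR34 at 3.42 to 5.94 FPKM against 14.6 to 16.1 FPKM (adjusted p = 0.00117). BMORCPR32 had 0 FPKM in each A306 library and 5.08, 3.92 and 5.76 FPKM in XH. Of 64 glycine-rich and hypothetical-class genes 10 were tested, with 4 higher in XH, 2 in A306 and a median log2 change of −0.48, and 3 of the 10 were kept through 1 strain alone. BMORCPG17 had 0 FPKM in the A306 libraries and 26.1, 23.6 and 10.9 FPKM in XH.

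One cuticle-class gene was among the most abundant transcripts of the gland and higher in A306. CPH44 (BGIBMGA005303, a putative cuticle protein of the hypothetical class) was at 13065, 12655 and 11663 FPKM in A306 and at 3541, 3543 and 3960 FPKM in XH. The groups were far apart, with a mean 3.38-fold higher in A306 (log2 change 1.76 ± 0.0629 SE, limma adjusted p = 1.36e-05), and A798 was at 3122 to 3269 FPKM. Cuticle genes of one class share sequence, so their split is uncertain.

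Genes around the moulting hormone differed in both directions. Ecdysone oxidase (BGIBMGA000158), which inactivates ecdysteroids by oxidation, was at 5644, 5516 and 5467 FPKM in A306 and at 2366, 2326 and 2422 FPKM in XH, 2.34-fold higher in A306 with no overlap (log2 change 1.22 ± 0.0262 SE, limma adjusted p = 1.87e-06). CYP306A1, a hydroxylase of ecdysone synthesis, was at 0.54, 0.46 and 0.30 FPKM in A306 and at 8.41, 7.93 and 7.83 FPKM in XH, 18.6-fold higher in XH (adjusted p = 2.99e-05). USP, the nuclear receptor that pairs with the ecdysone receptor, was at 14.5, 12.7 and 9.70 FPKM in A306 and listed at 0 in all XH and A798 libraries. CYP306A1 reached 1 FPKM in XH libraries only and USP in A306 libraries only, so the filter fixed the direction of both. The ecdysteroid-regulated gene BGIBMGA008405 was at 369 to 381 FPKM against 400 to 421 FPKM, slightly higher in XH (log2 change −0.13, adjusted p = 0.0256), a call that ended when all 9 libraries entered the fit, with no intensity trend, with the replicate number as a block and without replicate 1 or 2 of either strain.

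Both tested juvenile hormone genes, of 4 in the table, were higher in XH, beside 13.6% of all features. AN0895, a juvenile hormone binding protein, was at 16.0, 12.9 and 16.8 FPKM in A306 and at 34.0, 36.3 and 35.8 FPKM in XH, 2.32-fold higher (adjusted p = 0.000504). HJHBP, the haemolymph carrier of the hormone, was at 0, 0.11 and 0.23 FPKM against 3.10, 1.57 and 3.56 FPKM (adjusted p = 0.00307), and was kept through XH alone. The 2 tested genes of insulin and TOR signalling, P70S6K (BGIBMGA006807) and PI3K60, did not pass (adjusted p = 0.571 and 0.538).

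Genes of entry into the endoplasmic reticulum and of folding there were mostly higher in A306: 8 of 11, with 1 higher in XH, and 7 and 1 after centring. The median log2 change of 0.28, or 0.19 after centring, stands beside 0.13 and 0.04 over all features. Of all features 23.9% were higher in A306 and 13.6% in XH, or 18.1% and 16.3% after centring. CRT (calreticulin), a calcium-binding chaperone of glycoproteins, was at 910, 843 and 914 FPKM in A306 and at 89.3, 125 and 121 FPKM in XH. It was 7.94-fold higher in A306 with no overlap (log2 change 2.99 ± 0.134 SE, limma adjusted p = 3.11e-05), and A798 was at 98.7 to 231 FPKM. PPIB, a prolyl isomerase of secretory folding, was at 307, 300 and 289 FPKM against 174, 178 and 186 FPKM, 1.67-fold higher in A306 (adjusted p = 6.72e-05). The gene for stromal cell-derived factor 2 (BGIBMGA003367) was at 88.4, 76.8 and 75.6 FPKM against 49.3, 48.5 and 49.8 FPKM (adjusted p = 0.000726), and the SEC61 gamma gene of the translocation channel (BGIBMGA013713) at 932, 1168 and 1083 FPKM against 732, 730 and 867 FPKM (adjusted p = 0.0212). The SEC61 gamma call ended under quantile normalization, with equal sums, without the noncoding models and without replicate 2 or 3 of A306 or replicate 1 or 2 of XH.

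In vesicle transport 7 of 16 tested genes were higher in A306 and 1 in XH, beside 23.9% and 13.6% of all features. The median log2 change of 0.14 was near the 0.13 over all features. RAB11, a small GTPase of recycling and secretory vesicles, was at 91.7, 113 and 90.0 FPKM in A306 and at 32.2, 40.2 and 33.5 FPKM in XH, 2.78-fold higher in A306 (adjusted p = 0.000387). BMO.722, the gamma subunit of the coatomer coat, was at 69.0, 69.2 and 67.9 FPKM against 38.8, 38.1 and 39.6 FPKM (log2 change 0.81, adjusted p = 4.39e-05). RABB, annotated as the small GTPase Rab1 of transport from the endoplasmic reticulum to the Golgi, was at 20.2, 17.4 and 12.6 FPKM in A306 and listed at 0 in all XH and A798 libraries. It was kept through A306 alone, so the filter fixed its direction. The synaptosomal-associated protein gene BGIBMGA005176, a membrane-fusion gene, went the other way, at 2.35, 2.21 and 2.44 FPKM against 5.38, 8.82 and 5.58 FPKM (adjusted p = 0.00541).

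All 10 tested proteasome subunits, of 12 in the table, were higher in A306, as were 8 of 10 after centring and 5 of 10 after quantile normalization. The median log2 change was 0.37, 0.27 and 0.18 under the 3 scalings, and the members ranged from 0.17 to 0.61 as deposited. The beta subunit gene BMO.3609 was at 146, 142 and 137 FPKM in A306 and between 91.3 and 94.02 FPKM in XH, 1.54-fold higher (limma adjusted p = 0.000123). The alpha subunit gene BGIBMGA004657 was at 159, 155 and 166 FPKM against 114, 112 and 111 FPKM, 1.43-fold higher (adjusted p = 0.000287). In each of the 10 genes the A306 libraries lay above the XH libraries as deposited, as they did in 33.6% of all features. Calls higher in A306 made up 23.9% of all features, and 18.1% after centring.

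Heat shock and chaperone genes differed in both directions. Of 21 tested, 10 were higher in A306 and 4 in XH, with 8 and 4 after centring. These counts stand beside 23.9% and 13.6% of all features, or 18.1% and 16.3% after centring. The list median of 0.15 was near the 0.13 over all features. The DnaJ cochaperone gene DNAJ-8 was at 20.99 to 21.9 FPKM against 13.2 to 13.8 FPKM (log2 change 0.62, adjusted p = 0.00057). Of the small heat shock genes, heat shock protein 25.4 (BGIBMGA005781) was at 0.75 to 1.08 FPKM in A306 and 20.9 to 25.8 FPKM in XH, 25.6-fold higher in XH (adjusted p = 1.06e-05), and HSP20.4 at 65.8, 57.1 and 57.4 FPKM against 131, 121 and 125 FPKM, 2.09-fold higher in XH (adjusted p = 0.000139). HSP21.4, also of the small class, was higher in A306 (log2 change 0.54, adjusted p = 9.08e-05).

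Of 3 autophagy and 9 apoptosis genes 2 and 3 passed, all higher in A306, beside 37.5% called and 23.9% higher in A306 over all features. In the autophagy list, the Atg12-like gene BGIBMGA003954, of the conjugation system that builds autophagosomes, was at 20.2, 16.9 and 12.7 FPKM against 2.89, 5.68 and 7.21 FPKM (log2 change 1.53, adjusted p = 0.0126), and ATG8 at 3393, 3240 and 3103 FPKM against 2739, 2710 and 2896 FPKM, 1.17-fold higher (adjusted p = 0.0109). In the apoptosis list, HTRA2, a mitochondrial protease, was at 7.51, 4.27 and 6.40 FPKM in A306 and listed at 0 in all XH and A798 libraries, so that it was kept through A306 alone. The gene for endonuclease G (BGIBMGA004328) was at 10.5, 10.3 and 8.79 FPKM against 4.50, 3.07 and 3.81 FPKM (adjusted p = 0.00168), and the caspase gene BGIBMGA002841 at 5.71, 4.24 and 4.98 FPKM against 2.47, 3.03 and 2.83 FPKM (adjusted p = 0.0131). The Atg12-like call ended under the replicate block and on centred values without A306 replicate 1, and the ATG8 call under quantile normalization, with no intensity trend, under the block and on centred values without replicate 1 or 2 of either strain. That of the caspase gene ended under the block and on centred values without replicate 1 or 3 of either strain. Of 11 ubiquitin and SUMO genes 3 were higher in A306 and 1 in XH, with 1 each after centring.

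**Figure D3:**
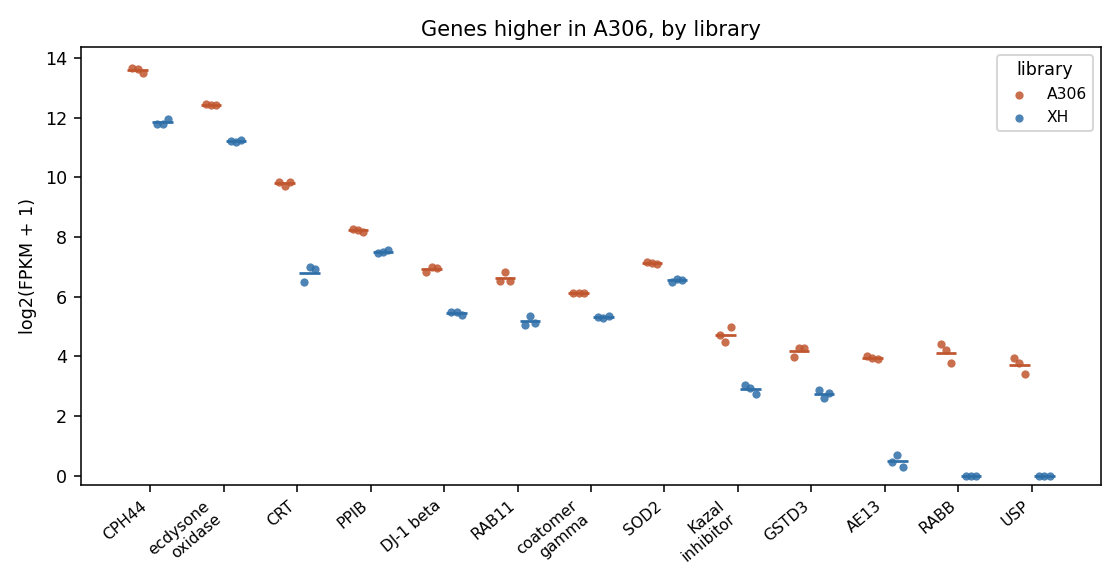
Log2(FPKM + 1) in each of 3 A306 (orange) and 3 XH (blue) libraries for 13 genes called higher in A306, with a short line at each strain's mean. CPH44 and ecdysone oxidase are among the most abundant gland transcripts, CRT shows a gap of 7.94-fold, and RABB and USP are listed at 0 in every XH library.

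Counts of calls among respiratory chain genes depended on the scaling, beside 23.9% of all features higher in A306 as deposited and 18.1% after centring. Of 14 respiratory chain and ATP synthase genes 7 were higher in A306 and 1 in XH, and 3 and 1 after centring. The ATP synthase beta subunit (BGIBMGA012549) was at 748, 748 and 720 FPKM against 560, 551 and 564 FPKM, 1.32-fold higher in A306 (adjusted p = 0.000183). The gamma subunit gene BGIBMGA013965 was the exception, with 0 FPKM in every A306 and A798 library and 146, 133 and 134 FPKM in XH. It was kept through XH alone. Of 9 genes of mitochondrial import, carriers and the mitochondrial ribosome 4 were higher in A306 and 0 in XH.

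Of 12 redox defence genes 6 were higher in A306 and 1 in XH, with 4 and 2 after centring. Among all features the shares were 23.9% and 13.6%, or 18.1% and 16.3% after centring. DJ-1 beta (BMDJ-1BETA), a sensor of oxidative stress, was at 112, 126 and 123 FPKM in A306 and at 43.7, 43.9 and 40.9 FPKM in XH, 2.81-fold higher (limma adjusted p = 2.28e-05). SOD2, a superoxide dismutase, was at 143, 140 and 135 FPKM against 89.0, 94.8 and 93.8 FPKM, 1.51-fold higher (adjusted p = 0.000213). The sulfiredoxin gene BGIBMGA007947, which repairs oxidised peroxiredoxin, was at 0, 4.07 and 0 FPKM in A306 and 22.9, 10.1 and 31.7 FPKM in XH (adjusted p = 0.0142), a call that ended without XH replicate 1 and under the replicate block.

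Sugar and citric acid cycle genes differed in both directions. Of 11 tested genes of glycolysis and sugar use 5 were higher in XH and 2 in A306, with 5 and 1 after centring. Among those higher in XH, aldose 1-epimerase (BGIBMGA009232) reached 1 FPKM in XH libraries only and could only be kept through XH. For all features the shares were 13.6% in XH and 23.9% in A306, or 16.3% and 18.1% after centring. Glucose-6-phosphate isomerase (BGIBMGA004221) was at 54.1, 54.7 and 52.4 FPKM in A306 and at 128, 124 and 127 FPKM in XH, 2.35-fold higher (adjusted p = 7.7e-06), and glucose-6-phosphate dehydrogenase (BGIBMGA005966), the entry to the pentose phosphate path, at 20.6, 19.3 and 21.4 FPKM against 32.2, 34.6 and 31.4 FPKM (adjusted p = 0.000771). In the citric acid cycle 2 of 7 genes were higher in each strain. Citrate synthase (BGIBMGA014294) was at 14.9, 20.2 and 17.9 FPKM against 57.1, 60.6 and 53.7 FPKM, 3.23-fold higher in XH (adjusted p = 0.000195). Of the pair of genes for NADP isocitrate dehydrogenase, IDH was at 163, 149 and 151 FPKM against 260, 234 and 271 FPKM, higher in XH (adjusted p = 0.000581), and BGIBMGA007586 at 242, 237 and 241 FPKM against 195, 186 and 189 FPKM, higher in A306 (adjusted p = 0.000577).

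Detoxification genes were split as well. Of 10 tested 2 were higher in A306 and 3 in XH, beside 23.9% and 13.6% of all features. The filter fixed the direction of 3 of these calls: AE13 was kept through A306 alone, and CYP306A1 and BGIBMGA009107 through XH alone. AE13, a carboxylesterase, was at 15.1, 14.3 and 13.9 FPKM in A306, at 0.38, 0.60 and 0.23 FPKM in XH and at 13.8 to 15.1 FPKM in A798, 35.8-fold higher in A306 than in XH (adjusted p = 1.8e-05). GSTD3, a glutathione S-transferase, was at 14.8, 18.2 and 18.5 FPKM against 6.35, 5.06 and 5.85 FPKM, 2.98-fold higher in A306 (adjusted p = 0.000452). The sigma-class glutathione S-transferase gene BGIBMGA009107 had 0 FPKM in each A306 library and 8.78, 14.02 and 14.5 FPKM in XH. Reads of these related transferases may be shared between copies.

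Genes of the translation machinery were called in both directions as deposited and more often higher in XH after centring, against 18.1% of all features higher in A306 and 16.3% in XH on that scale. Of 41 tested cytosolic ribosomal protein genes, of 49, 8 were higher in A306 and 9 in XH as deposited, and 3 and 17 after centring; their median log2 change moved from 0.00 to −0.09. RPS2 was at 6609, 6501 and 6123 FPKM in A306 and at 9735, 9611 and 9887 FPKM in XH, 1.52-fold higher in XH (limma adjusted p = 8.12e-05). RPS3 was at 4077, 3951 and 3875 FPKM against 5093, 5093 and 5178 FPKM, 1.29-fold higher in XH (adjusted p = 0.00021), whereas RPL26 was at 564, 470 and 443 FPKM against 238, 316 and 369 FPKM, 1.60-fold higher in A306 (adjusted p = 0.0274), a call that ended with no filter, under the replicate block and without A306 replicate 1 or 2 or XH replicate 2. Of 19 translation factors 3 were higher in each strain, with 2 for A306 and 6 for XH after centring. TEF2, the elongation factor that moves the ribosome along the message, was at 443, 326 and 371 FPKM in A306 and at 835, 763 and 938 FPKM in XH, 2.23-fold higher in XH (adjusted p = 0.00118), with A798 at 1157 to 1513 FPKM. EIF3C, an initiation factor subunit, was at 113, 115 and 114 FPKM against 80.4, 83.6 and 86.4 FPKM, higher in A306 (adjusted p = 0.000504).

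None of the 4 tested aminoacyl-tRNA synthetases passed in limma either as deposited or after centring. The glycine enzyme (BGIBMGA007637), which charges the amino acid most used in fibroin, was at 133, 121 and 129 FPKM in A306 and at 133, 130 and 133 FPKM in XH (log2 change −0.04 ± 0.0454 SE, adjusted p = 0.484). Of 8 ribosome biogenesis genes 2 were higher in A306 and 3 in XH, and 0 and 3 after centring. Over all features the shares were 23.9% and 13.6%, or 18.1% and 16.3% after centring.

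**Figure D4:**
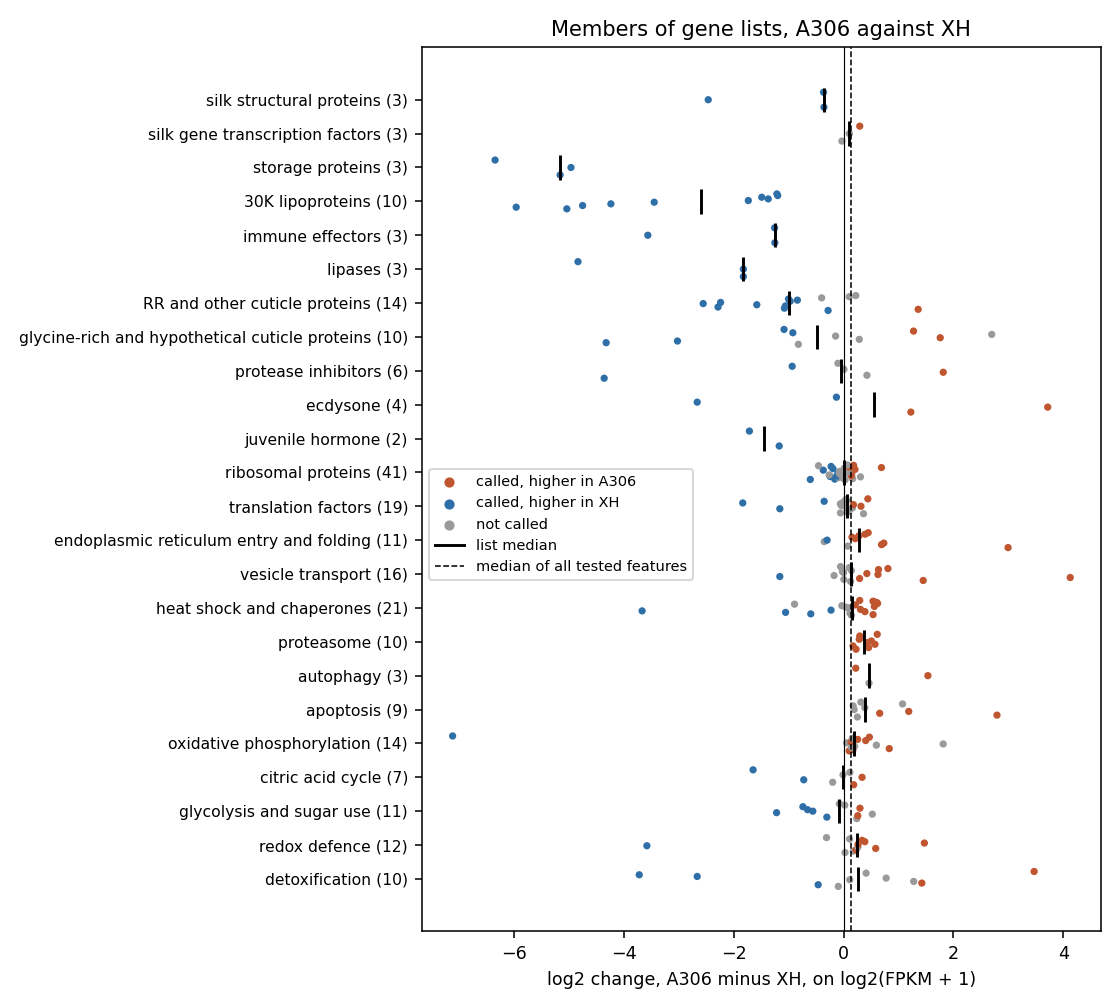
Fitted log2 change, A306 minus XH, on the horizontal axis for each tested member of 24 gene lists, with the number of tested members in brackets; orange and blue mark members called higher in A306 and XH, grey those not called, short black bars the list medians and the dashed line the median of 0.13 over all tested features. Storage proteins and 30K lipoproteins lie wholly to the left and the 10 proteasome genes wholly to the right, while ribosomal proteins straddle 0.

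Replication and chromatin genes differed little and in both directions. Of 17 tested replication and cell cycle genes 4 were higher in A306 and 1 in XH, with 2 each after centring. Among the 17, 1 was kept through 1 strain alone. The 4 of 17 were near the 23.9% of all features higher in A306, and 13.6% of all were higher in XH. CDC2, the kinase of entry into mitosis, was at 8.31, 8.53 and 9.42 FPKM against 6.28, 5.48 and 6.72 FPKM (adjusted p = 0.0204, and 0.0501 after centring, with the call also lost without A306 replicate 2 or 3 or XH replicate 1 or 2), and the replication factor gene BGIBMGA003377 at 9.02, 8.13 and 8.41 FPKM against 5.62, 5.12 and 4.42 FPKM (adjusted p = 0.00564). PCNA did not pass (adjusted p = 0.866). Of 12 histone and chromatin genes 2 were higher in each strain: HIS2AV, a histone H2A, was at 72.1, 60.3 and 80.9 FPKM in A306 and 31.6, 33.6 and 45.1 FPKM in XH (log2 change 0.94, adjusted p = 0.00736), and the histone H3 gene BGIBMGA005550, which has near copies, at 452, 423 and 399 FPKM against 516, 531 and 529 FPKM (adjusted p = 0.00529).

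Some genes were present in one strain and listed at 0 in the other. Of the tested features, 67 had 0 FPKM in every A306 library and 62 in every XH library. Of these, 24 reached 5 FPKM in every XH library and 25 in every A306 library, 3 with a description in each case. The 3 of XH were ATP synthase gamma, BMORCPG17 and the sigma-class transferase given above. The 3 of A306 were USP, RABB and the inorganic phosphate co-transporter gene BGIBMGA014105, at 17.5, 25.3 and 12.2 FPKM in A306, at 0 in XH and at 8.21 to 23.5 FPKM in A798. A value of 0 does not show absence: 0 FPKM was given in each of the 6 libraries to 6036 features, and these include 6 genes for ribosomal proteins, needed by all cells, so a 0 can be a failed estimate or reads given to another gene model. The calls of such features have no fold change here.

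The genes with neither name nor description held 1355 of the 1632 calls, and some of the widest gaps. BGIBMGA009791 had 0 FPKM in each A306 library and 495, 505 and 463 FPKM in XH. BGIBMGA001359 was at 19.8, 0 and 27.3 FPKM in A306 and at 2275, 2551 and 2118 FPKM in XH (limma adjusted p = 0.00453), with A798 at 0 to 5.76 FPKM. In the other direction, BGIBMGA014208 was at 359, 338 and 367 FPKM in A306 and listed at 0 in XH, and BGIBMGA007628 at 329, 334 and 320 FPKM in A306 and listed at 0 in both other strains.

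A second deposited table annotates 5 genes, BMSUC1 among them. The odorant-binding protein gene BGIBMGA002629, of a family that carries small hydrophobic molecules, was at 438, 448 and 413 FPKM in A306 and at 317, 301 and 348 FPKM in XH, 1.34-fold higher in A306 (adjusted p = 0.00362). The zonadhesin-like gene BGIBMGA010889, with trypsin inhibitor-like domains, was at 8.64, 7.86 and 9.66 FPKM against 137, 126 and 132 FPKM, 15.1-fold higher in XH (adjusted p = 1.95e-06), and A798 was at 10.6 to 14.97 FPKM. The alkylglycerol monooxygenase gene BGIBMGA002524, an ether lipid enzyme, was at 0.22, 0.09 and 0.42 FPKM against 6.03, 6.34 and 8.73 FPKM (adjusted p = 0.000165). The glucose dehydrogenase gene BGIBMGA005711 was at 0.61, 0.54 and 0.68 FPKM against 2.69, 2.86 and 2.35 FPKM (adjusted p = 0.000764), both far below the 199 to 227 FPKM of A798. BGIBMGA002524 and BGIBMGA005711 reached 1 FPKM in XH but in no A306 library, so the filter fixed the direction of both.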

How the data were processed

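Total RNA of silk glands was sequenced, per the labels. The authors deposited FPKM values to 2 decimals; tools named in the submitters' processing notes are DESeq2 1.24.0, fastp 0.19.5 and StringTie 1.3.3b. The sources used here do not give the aligner, genome build, annotation or strandedness. FPKM divide by length and library total, so an abundant transcript lowers all others. A second deposited table, named for counts, repeats FPKM of 5 genes. The strain mean columns were not used.

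Features with at least 1 FPKM in 3 of the 6 libraries were fitted on log2(FPKM + 1), which understates changes of low genes, with limma 3.58.1 in R 4.3.3 (empirical Bayes with intensity trend, Benjamini-Hochberg over all features, two-sided, call below 0.05), as deposited and median-centred. Fold changes are ratios of mean FPKM. The fit was tested on simulated data. Weights and ratios were compared by exact permutation (scipy 1.17.1).

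Members and the 41 gene lists, matched by name and description, were chosen with earlier results of these data known. Named genes were all tested silk genes; the 12 highest and 12 lowest described calls with a mean of 5 FPKM and no overlap; up to 4 calls per list; the 10 most abundant described features; up to 6 listed at 0 in one strain; 2 undescribed genes each way; and the 5 of the second table. PI3K60, PPO1, SYTI, VG, LP-C12, HSP21.4 and PCNA were named after their values were seen. Alternatives were other scalings, pseudocounts of 0.1 and 5, other filters, all 9 libraries, no trend, a replicate block and leaving out each library. The labels do not say that samples with the same replicate number belong together.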

Additional observations from a re-analysis of the deposited data

How the results depend on the processing

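Of the 131 named genes called as deposited, 89 were called in the same direction in every alternative run, 41 lost the call in at least 1 without a change of sign, and 1, the ribosomal protein S3a gene BGIBMGA011416, changed sign: its log2 change of 0.0998 became −0.0953 after quantile normalization, −0.00371 with equal sums outside the 20 most abundant features, −0.0194 without the noncoding models, and −0.000398 and −0.00142 on centred values without A306 replicate 2 and XH replicate 2. The 1040 calls higher in A306 were 628 with the replicate block on centred values and, on centred values with 1 library left out, 623, 628 and 641 (without A306 replicate 1, 2 or 3) and 670, 679 and 678 (without XH replicate 1, 2 or 3), while leaving out a library of the deposited values gave 779 to 906. The 592 calls higher in XH fell to 386 with a filter of 5 FPKM and to 391 without features that reach 1 FPKM in 1 strain only, an alternative chosen after seeing the data. The 656 calls of at least 2-fold became 296 with a pseudocount of 5, 376 with the filter of 5 FPKM and 360 without the features of 1 strain only.

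With the replicate number as a block there were 1324 calls, 813 of them higher in A306 and 511 in XH. Deviations of same-numbered A306 and XH libraries correlated at 0.0276, 0.0083 and 0.0253. With 3 libraries a strain, these values cannot show whether same-numbered samples shared a day or batch, and the labels state no pairing.

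Signs that turned among genes not called were those of RPS14 without A306 replicate 2 (0.00199; −0.0480 at the lowest among deposited values with 1 library left out), FMBP-1 without A306 replicate 2 (0.117, or 0.0223 centred; −0.145 at the lowest by the same measure) and without XH replicate 1 (0.0539), and SGF1 (−0.0946 by quantiles, −0.0109 without noncoding models, −0.0629 and −0.0100 centred without A306 or XH replicate 3). The same holds for P70S6K, BGIBMGA006807 (−0.0180 and −0.0727 centred without A306 replicate 1 or XH replicate 3), and for 3 models of 5.8S ribosomal RNA with equal values, ENSRNA022709902, ENSRNA022710102 and ENSRNA022710516, without XH replicate 3 (−0.195, or −0.303 centred; 0.544 at the highest by the same measure). For all of these the cause was not tested. The difference in heavy to light chain percentage, −3.72 points, stayed between −3.86 and −3.59 with 1 library left out, and that in gland weight, −0.286 g, between −0.294 and −0.274 g. Of the 1866 features under a mean of 5 FPKM 28.6% were called; the part of depth in this, which is unknown, was not tested.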

Other observations

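Chitin, lipid, chemosensory and patterning genes were measured as well. Of 3 tested chitin metabolism genes 2 were higher in A306, beside 23.9% of all features. GLCNACASE1, a beta-hexosaminidase that trims chitin oligomers, was at 157, 150 and 169 FPKM in A306 and at 129, 128 and 118 FPKM in XH, 1.27-fold higher (limma adjusted p = 0.00762, and 0.13 at most in the alternatives). Of 8 lipid metabolism genes 1 passed: the acyl-coenzyme A oxidase gene BGIBMGA002716 was at 2.21, 1.55 and 1.43 FPKM in A306 and listed at 0 in all XH and A798 libraries. It was kept through A306 alone. Of 5 tested chemosensory genes 3 were higher in XH, beside 13.6% of all features. Among the 3, GOBP1 and BGIBMGA004044 reached 1 FPKM in XH libraries only and could only be kept through XH. GOBP1, an odorant-binding protein, had 0 FPKM in each A306 library and 2.84, 5.29 and 3.71 FPKM in XH.

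Engrailed, a segment-patterning homeobox gene known in the silkworm gland, has 2 models among 3 tested patterning genes. BGIBMGA009798 was at 12.4 to 13.3 FPKM in A306 and at 15.02 to 21.2 FPKM in XH (limma adjusted p = 0.0346, at most 0.349 in the alternatives and lost without any 1 of the libraries but XH replicate 1), and EN did not pass (adjusted p = 0.842). Of the vacuolar proton pump, subunit F (BGIBMGA008011) was higher in A306 at 181, 166 and 151 FPKM against 112, 110 and 108 FPKM (adjusted p = 0.00147), and subunit G (BGIBMGA013678) was higher in XH at 338, 365 and 333 FPKM against 286, 305 and 272 FPKM (adjusted p = 0.0154, and 0.0502 without A306 replicate 1). The reticulon-like gene BGIBMGA005861, of a family that shapes the endoplasmic reticulum, was at 0, 9.79 and 0 FPKM in A306 and 34.1, 58.4 and 59.9 FPKM in XH (adjusted p = 0.0153, lost without XH replicate 2 or 3, at most 0.0521). PP, named promoting protein, was at 0.83, 0.81 and 0.91 FPKM in A306 and 23.1, 19.3 and 22.2 FPKM in XH. It was kept through XH alone.

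Of 18 tested noncoding RNA models 1 was higher in each strain, beside 23.9% of all features higher in A306 and 13.6% in XH. The small subunit ribosomal RNA model ENSRNA022710110 was at 8740, 7769 and 8248 FPKM in A306 and at 13193, 14190 and 11555 FPKM in XH (adjusted p = 0.00216), and the nuclear RNase P model ENSRNA022711393 was listed at 0 in XH and at 1.23, 1.18 and 1.37 FPKM in A306. Both calls ended with all 9 libraries in the fit. The RNase P model was kept through A306 alone, so the filter fixed its direction. The way ribosomal RNA was handled in library preparation is not given in the sources used here.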
